A study of Mus musculus with 4 samples.

Results

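The troponin genes of cultured mouse myoblasts were followed across growth and differentiation, in cells given a retrovirus with GFP alone or with Twist2, a transcription factor of the bHLH class that Twist and MyoD share. The genes were chosen by name, as every entry of the deposited table whose symbol begins with Tnnc, Tnni or Tnnt and a digit. This rule gave 7 of the 3760 genes in the table, namely Tnnc1, Tnnc2, Tnni1, Tnni2, Tnnt1, Tnnt2 and Tnnt3. In the GENCODE M21 annotation of GRCm38, 9 genes match the same rule, of which 8 encode troponins. The other 2 matches that are not in the table are Tnni3, which encodes cardiac troponin I and was not analysed here, and Tnni3k, a kinase gene that encodes no troponin.

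All cells were myoblasts of adult C57BL/6 skeletal muscle that the labels call Twist2-positive. Their growth medium held 20% FBS, and they spent 24 h with a retrovirus and a further 24 h without it. The virus carried either GFP or, under the label Twist2-IRES-GFP, Twist2 together with GFP. Cells were collected then, or after 5 days in differentiation medium with 2% horse serum. The 4 groups are called here GFP growth, GFP differentiation, Twist2 growth and Twist2 differentiation. Each group had 1 library, so no difference has a replicate check and no p-value is given. The share of cells that took up the virus is not given in the sources used here, and in bulk RNA fewer muscle cells and less RNA per muscle cell cannot be told apart.

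Troponin is the calcium switch of striated muscle. On the thin filament, troponin C binds calcium, troponin I holds back the interaction of actin and myosin, and troponin T anchors the complex to tropomyosin. Each subunit is made from separate genes for fast skeletal, slow skeletal and heart muscle, and the heart form of troponin T, Tnnt2, is also known from developing and regenerating skeletal muscle.

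Troponin I and T genes lie in neighbouring pairs. Tnni1 (chromosome 1, 135779434 to 135810989) and Tnnt2 (chromosome 1, 135836354 to 135852260) lie 25364 bp apart on the plus strand, with the coding gene Lad1 between them. Tnni2 (chromosome 7, 142441808 to 142444410) and Tnnt3 (chromosome 7, 142498836 to 142516009) lie 54425 bp apart, with Lsp1 between them. Tnnt1 (chromosome 7, 4504570 to 4516382) lies 1922 bp from Tnni3. Tnnc1 (chromosome 14, 31208312 to 31211729) and Tnnc2 (chromosome 2, 164777161 to 164779967) lie apart from the others.

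The RefSeq promoter table of GRCm38.p6 held 5 of the 7 genes, in 7 windows. The 250 bases before a RefSeq transcript start are shown for the neighbours Tnnt2 and Tnni1, whose ratios between the growth libraries had opposite signs, and for Tnnc2 and Tnnt1 as a fast and a slow gene. The windows are chr1:135836084-135836333 (plus strand) for Tnnt2, chr1:135799171-135799420 (plus strand) for Tnni1, chr2:164779735-164779984 (minus strand) for Tnnc2 and chr7:4515976-4516225 (minus strand) for Tnnt1. Capitals mark the E-box CANNTG, the core that bHLH factors bind.
Tnnt2: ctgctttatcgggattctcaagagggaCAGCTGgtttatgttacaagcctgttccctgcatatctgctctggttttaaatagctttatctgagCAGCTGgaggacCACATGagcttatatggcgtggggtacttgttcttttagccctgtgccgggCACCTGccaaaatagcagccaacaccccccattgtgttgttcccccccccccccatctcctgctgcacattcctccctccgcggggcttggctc
Tnni1: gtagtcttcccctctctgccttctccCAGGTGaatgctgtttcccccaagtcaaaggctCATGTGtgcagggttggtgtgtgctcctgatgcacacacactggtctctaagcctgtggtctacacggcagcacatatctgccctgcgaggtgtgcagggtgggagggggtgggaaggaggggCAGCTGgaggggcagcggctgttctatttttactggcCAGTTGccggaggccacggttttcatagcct
Tnnc2: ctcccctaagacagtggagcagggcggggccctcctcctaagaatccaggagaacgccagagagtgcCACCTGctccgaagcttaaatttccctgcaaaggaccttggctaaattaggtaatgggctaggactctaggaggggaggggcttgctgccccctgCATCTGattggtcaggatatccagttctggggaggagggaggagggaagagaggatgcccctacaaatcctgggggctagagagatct
Tnnt1: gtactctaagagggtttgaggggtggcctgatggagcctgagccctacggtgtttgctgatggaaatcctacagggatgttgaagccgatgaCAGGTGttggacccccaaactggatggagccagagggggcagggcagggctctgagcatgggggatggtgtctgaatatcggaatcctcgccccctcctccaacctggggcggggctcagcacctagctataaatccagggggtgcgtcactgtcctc

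The Tnnt2 window holds 4 E-boxes, of which 2 have the form CAGCTG, and the Tnni1 window also holds 4, with 1 CAGCTG. Tnnc2 has 2 E-boxes and Tnnt1 has 1, and Tnnc1, whose window is not shown, has 2, with no CAGCTG in these 3. A second start gave Tnnt2 another window, with 1 E-box, and Tnni1 one that overlaps the first, with 2. Among all 32851 windows of the same length, 66.2% hold CANNTG and 13.0% hold CAGCTG, on either strand. Every CAGCTG is also a CANNTG. The MCAT motif CATTCC is in the windows of Tnnt2 and Tnnc1 and in 12.6% of all windows. MEF2 and CArG motifs, in 2.92% and 1.47% of all windows, have no match in the 7 troponin windows. These matches describe the letters only.

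The table gives CPM, which is reads per gene on a scale that makes libraries of unequal depth comparable, and 3 reads correspond to 0.243 to 0.325 CPM. Library totals recovered from it were 9744075 reads (GFP growth), 9235281 (GFP differentiation), 11068073 (Twist2 growth) and 12362290 (Twist2 differentiation). The virus-encoded gene matched the labels, with Twist2 at 0.103 and 0 CPM in the GFP libraries and at 1438 and 674 CPM in the Twist2 libraries. Of 8 muscle identity markers 7 were listed, among them Myod1 at 547 to 1184 CPM and Des, which encodes desmin, at 726 to 6503 CPM. No endothelial, blood, adipocyte or heart muscle marker of those searched was listed, which does not show that they were absent. Every gene in the table reached 10 CPM in 2 or more libraries, and also differed 2-fold or more from GFP growth in 1 or more of the authors' 3 comparisons. The 7 genes were thus bound to differ from GFP growth in some library. A gene under 10 CPM in both growth libraries could be listed only if it was higher after differentiation in both kinds of cell.

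The troponin genes together took 0.0337% of all reads in GFP growth and 1.51% in GFP differentiation. In the Twist2 libraries they took 0.0213% in growth and 0.503% in differentiation. Of the 7 genes, 6 ranked the libraries in the order GFP differentiation, Twist2 differentiation, GFP growth, Twist2 growth, from highest to lowest. The exception was Tnnt2, which was slightly higher in Twist2 growth than in GFP growth. For each gene the 95% counting intervals of neighbouring libraries in its order did not overlap. These intervals are exact Poisson intervals of the reads and cover counting error only, because PCR copies cannot be told from separate molecules.

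**Figure D1:**
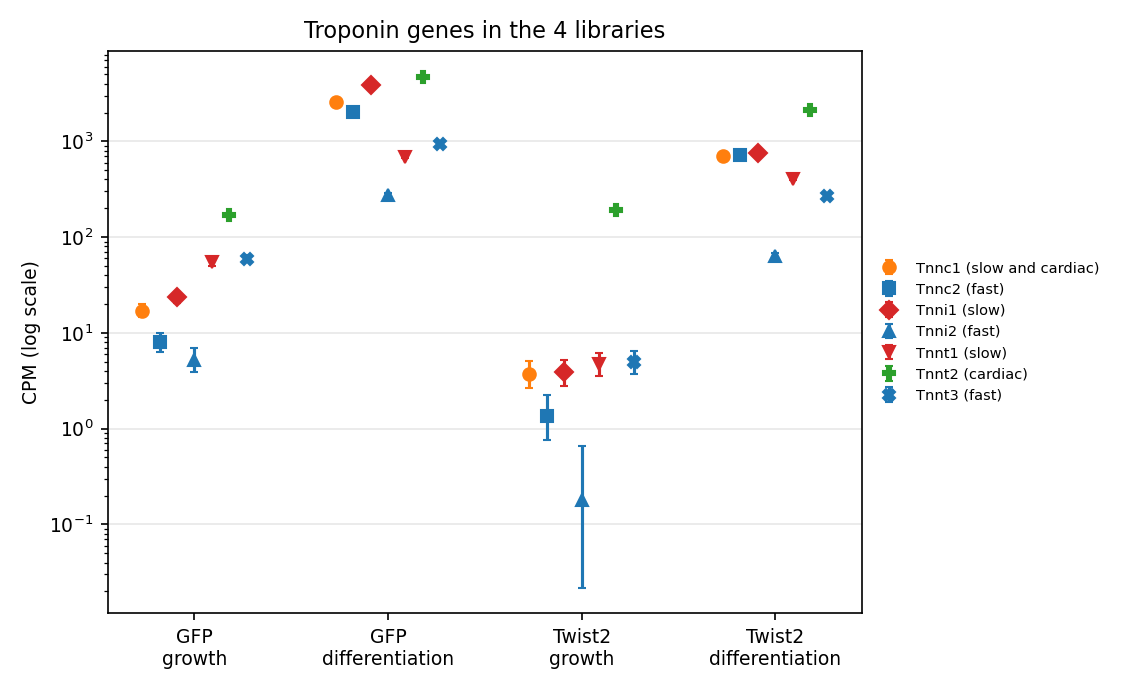
CPM of the 7 troponin genes (vertical log axis) in the 4 libraries (horizontal axis), with exact 95% Poisson intervals of the reads as bars. In Twist2 growth, Tnnt2 stands at 194 CPM, and the other 6 genes lie between 0.181 and 4.97 CPM.

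Troponin C is encoded by Tnnc1, the slow skeletal and cardiac form, and Tnnc2, the fast form. Tnnc1 was measured at 17.0 CPM in GFP growth, 2597 in GFP differentiation, 3.70 in Twist2 growth and 696 in Twist2 differentiation. Tnnc2 was measured at 8.00, 2047, 1.36 and 723 CPM in the same order, the Twist2 growth value resting on 15 reads. Each gene was lowest in Twist2 growth and highest in GFP differentiation. In GFP cells Tnnc1 was 152-fold and Tnnc2 256-fold higher after differentiation. The log2 ratios of reads were 7.25 (95% interval 7.03 to 7.48) for Tnnc1 and 8.00 (7.68 to 8.34) for Tnnc2. In Twist2 cells the log2 ratios were 7.55 (7.11 to 8.03) and 9.06 (8.34 to 9.90).

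Twist2 cells had less of both troponin C transcripts than GFP cells in either medium. In growth medium the log2 ratio of Twist2 to GFP was -2.20 (-2.73 to -1.70) for Tnnc1 and -2.56 (-3.47 to -1.75) for Tnnc2, intervals that overlap. In differentiation medium it was -1.90 (-1.94 to -1.86) for Tnnc1 and -1.50 (-1.54 to -1.47) for Tnnc2, intervals that do not. The slow and cardiac gene was therefore 3.73-fold lower and the fast gene 2.83-fold lower there.

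Annotated transcripts of Tnnc2 overlap a long transcript of Ube2c, a ubiquitin-conjugating enzyme gene of mitosis, on the opposite strand. Of the 750 different 50-base words in Tnnc2 transcripts, 47.9% also occur in Ube2c, on either strand. The strand setting of the counting is not given, and without strand the reads from the shared stretch cannot be told apart. The gene bodies of Tnnc1 and Tnnt3 also overlap genes on the opposite strand, Nisch and Prr33, but their transcripts share 0 such words with any other gene. Ube2c was measured at 74.5 CPM in GFP growth, 2.17 in GFP differentiation, 128 in Twist2 growth and 17.1 in Twist2 differentiation. Its level was thus highest where that of Tnnc2 was lowest. Among the other 6 genes the share of such words found in any other gene was between 0 and 1.16%, and the only ones shared within the troponin family were 2 words common to Tnni1 and Tnnt2.

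Troponin I was represented by Tnni1, the slow skeletal form, and Tnni2, the fast form. Tnni1 was measured at 23.6 CPM in GFP growth, 3863 in GFP differentiation, 3.89 in Twist2 growth and 763 in Twist2 differentiation. Tnni2 was measured at 5.23, 275, 0.181 and 63.0 CPM, its Twist2 growth value resting on 2 reads. Per kilobase of transcript it had the lowest level of the troponins in every library. Tnni1 was 164-fold higher after differentiation in GFP cells (log2 ratio of reads 7.35, 7.17 to 7.55) and 196-fold higher in Twist2 cells (7.62, 7.19 to 8.09). For Tnni2 the log2 ratios were 5.71 (5.32 to 6.14) in GFP cells and 8.45 (6.59 to 11.49) in Twist2 cells.

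Of all 7 genes, Tnni1 had the lowest Twist2 to GFP ratio after differentiation, at 5.06-fold lower (log2 ratio -2.34, -2.37 to -2.31). Tnni2 followed at 4.36-fold lower (-2.13, -2.24 to -2.01). In growth medium the log2 ratio was -2.60 (-3.11 to -2.13) for Tnni1. For Tnni2, with 51 reads in the GFP and 2 in the Twist2 library, it was -4.86, known only within -7.94 to -2.93.

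Troponin T was represented by all 3 of its genes, the slow form Tnnt1, the cardiac form Tnnt2 and the fast form Tnnt3. Tnnt2 was measured at 169 CPM in GFP growth, 4733 in GFP differentiation, 194 in Twist2 growth and 2120 in Twist2 differentiation. Per kilobase of its longest coding transcript it had the highest level of the troponins in every library, a rank that depends on the length used for Tnnt2. Tnnt1 was measured at 54.8, 688, 4.70 and 402 CPM in that order, and Tnnt3 at 59.6, 945, 4.97 and 266 CPM. Per kilobase, Tnnt1 and Tnnt3 lay close together in the growth libraries, at 51.7 and 55.3 CPM in GFP cells and 4.44 and 4.61 CPM in Twist2 cells. In the GFP growth library the troponin C and I genes lay below both, at 6.82 to 23.6 CPM per kilobase.

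The growth libraries separated Tnnt2 from the other troponin T genes. Twist2 cells had 1.15-fold more Tnnt2 than GFP cells (log2 ratio 0.20, 0.11 to 0.29). In the same comparison Tnnt1 was 11.7-fold lower (-3.54, -3.98 to -3.13) and Tnnt3 was 12.0-fold lower (-3.58, -4.01 to -3.18). The neighbouring gene of Tnnt2, Tnni1, was 6.08-fold lower. Ranked by the ratio with 1 CPM added, Tnnt2 stood 2431st from the lowest of 3514 genes, while Tnnt3 and Tnnt1 stood 19th and 20th. Within 100 kb of the Tnni1 and Tnnt2 pair, the listed genes Csrp1 and Pkp1 had Twist2 to GFP log2 ratios, with 1 CPM added, of 0.69 and 0.46 in growth medium. Around the Tnni2 and Tnnt3 pair, the listed genes Ctsd, Lsp1 and H19 had ratios of -0.23, -0.02 and -2.25.

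After differentiation all 3 troponin T genes were lower with Twist2, and Tnnt1 least so. Tnnt3 was 3.55-fold lower (-1.83, -1.88 to -1.77), Tnnt2 2.23-fold lower (-1.16, -1.18 to -1.14) and Tnnt1 1.71-fold lower (-0.77, -0.83 to -0.72). Differentiation of GFP cells gave log2 ratios of 4.81 (4.74 to 4.88) for Tnnt2, 3.99 (3.86 to 4.11) for Tnnt3 and 3.65 (3.52 to 3.78) for Tnnt1. In Twist2 cells the order was the opposite, with 3.45 (3.39 to 3.51) for Tnnt2, 5.74 (5.36 to 6.16) for Tnnt3 and 6.42 (6.03 to 6.84) for Tnnt1.

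**Figure D2:**
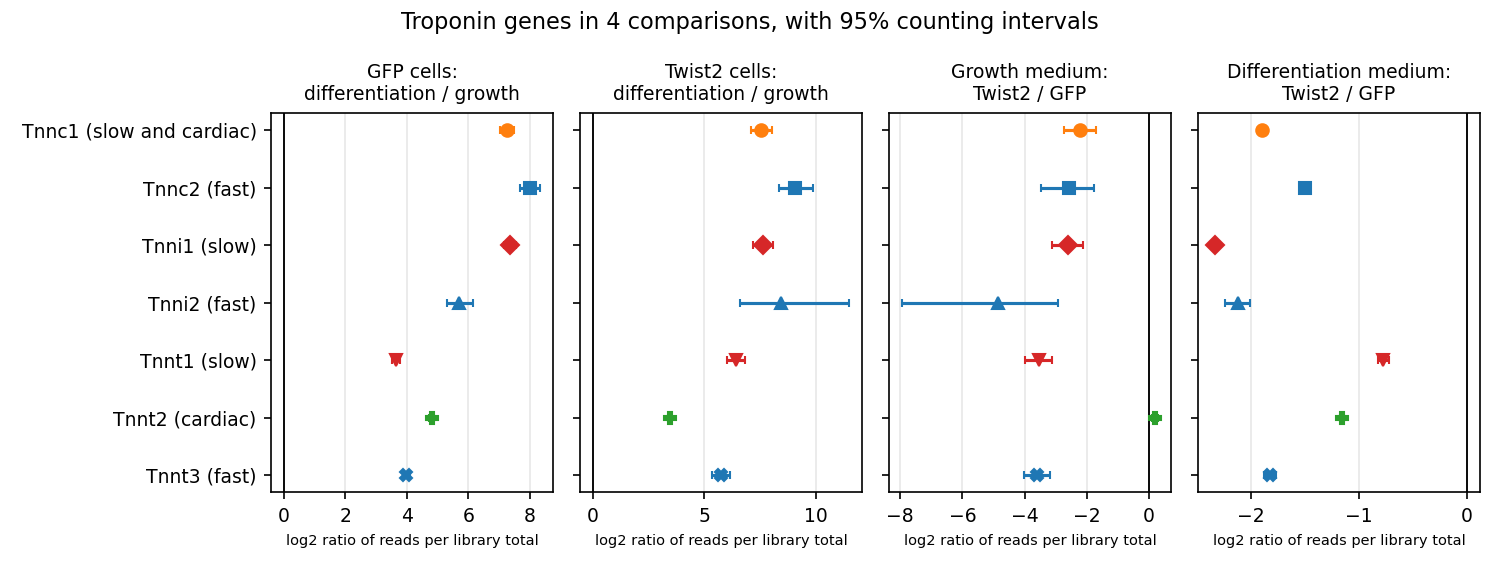
Log2 ratio of reads scaled to library totals (horizontal axes, which differ in range) for the 7 troponin genes (vertical axis) in the 4 comparisons, with 95% counting intervals as bars. Tnnt2 in growth medium, at 0.20, is the 1 value to the right of 0 in the comparisons of Twist2 with GFP.

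Levels of different genes were compared per kilobase of their longest coding transcript, which runs from 700 bp (Tnnc2) to 1200 bp (Tnnt2). On this scale the fast gene Tnnc2 made 32.6% of troponin C in GFP growth (95% binomial interval 26.7 to 38.9%) and 44.8% in GFP differentiation (44.3 to 45.3%). In Twist2 cells it made 27.4% (16.2 to 41.0%) in growth and 51.7% (51.0 to 52.4%) in differentiation. The fast share of troponin C was thus higher after differentiation in both kinds of cell, and the intervals of the growth libraries overlapped. With merged exon lengths the shares after differentiation were 50.6% in GFP and 57.5% in Twist2 cells, so that the majority gene of GFP differentiation depends on the length used.

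For troponin I the fast share went the other way in GFP cells. Tnni2 made 24.9% (19.4 to 31.1%) of the listed troponin I in GFP growth and 9.63% (9.28 to 9.99%) in GFP differentiation. In Twist2 cells it made 6.51% (0.811 to 21.1%) in growth and 11.0% (10.3 to 11.7%) in differentiation. The slow gene Tnni1 made the rest, since Tnni3 was not analysed. With merged exon lengths, Tnni1 counts as 3600 bp in place of 1150 bp. The share of Tnni2 was then 34.8% and 14.6% in GFP and 10.1% and 16.6% in Twist2 cells, higher in each library. In GFP cells the direction was the same. In Twist2 cells the growth interval, from 2 reads of Tnni2, encloses the share after differentiation, so no direction is given there.

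Cardiac Tnnt2 made 56.8% (54.9 to 58.7%) of troponin T per kilobase in GFP growth, 72.1% (71.7 to 72.5%) in GFP differentiation, 94.7% (93.6 to 95.6%) in Twist2 growth and 73.8% (73.3 to 74.3%) in Twist2 differentiation. Fast Tnnt3 exceeded slow Tnnt1 in GFP differentiation, at 16.0% against 11.9%. The order was turned in Twist2 differentiation, at 10.3% against 15.9%. Shares within the troponin T genes depend on the length assigned to Tnnt2, whose merged exons, with retained introns, span 7752 bp. With merged exon lengths its share was 25.8%, 40.2%, 82.6% and 43.8% in the order of libraries above, so that it was the majority in Twist2 growth alone, which had the highest share with each length used.

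**Figure D3:**
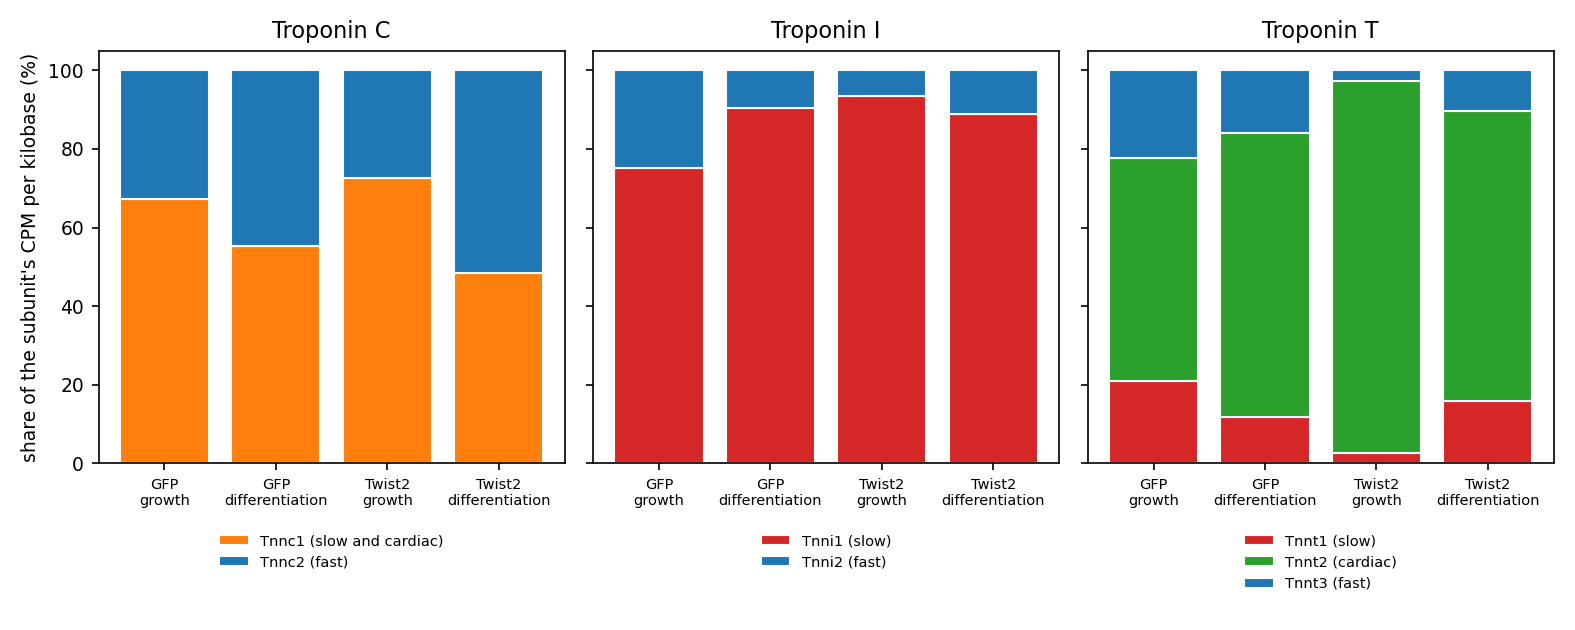
Share of each gene in the CPM per kilobase of its subunit (vertical axis, percent) in the 4 libraries (horizontal axis), for troponin C, I and T. Tnnt2 fills 94.7% of the troponin T bar in Twist2 growth, against 56.8% in GFP growth.

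By isoform class, fast and slow genes did not separate. After differentiation the Twist2 to GFP log2 ratios of reads were -1.50, -1.83 and -2.13 for the fast genes Tnnc2, Tnnt3 and Tnni2. They were -0.77 and -2.34 for the slow genes Tnnt1 and Tnni1, a range that encloses that of the fast genes. Tnnc1, shared by slow and heart muscle, lay at -1.90, and cardiac Tnnt2 at -1.16. Per kilobase, the fast genes made 26.5% of all listed troponin in GFP differentiation and 26.5% in Twist2 differentiation. The slow genes Tnni1 and Tnnt1 made 25.5% and 20.3%, Tnnc1 22.9% and 18.8%, and Tnnt2 25.1% and 34.4%. In growth medium Tnnt2 alone made 45.4% of listed troponin in GFP cells and 89.1% in Twist2 cells. These shares depend on the lengths assigned to all the genes, among them Tnnt2 and Tnni1, and were computed with the longest coding transcripts alone. The equal fast shares may therefore not hold with other lengths.

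The subunits were unevenly represented in growth medium. Per kilobase, the listed genes of troponin C, I and T summed to 35.1, 27.3 and 248 CPM in GFP growth, a T to C ratio of 7.07. In Twist2 growth they summed to 7.07, 3.61 and 171 CPM, a T to C ratio of 24.1. After differentiation the sums were 6526, 3717 and 5469 CPM in GFP cells and 1997, 746 and 2393 CPM in Twist2 cells. The T to C ratio was then 0.838 and 1.20. With merged exon lengths these 4 ratios were 3.20, 5.77, 0.301 and 0.397, lower throughout and in the same order.

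**Figure D4:**
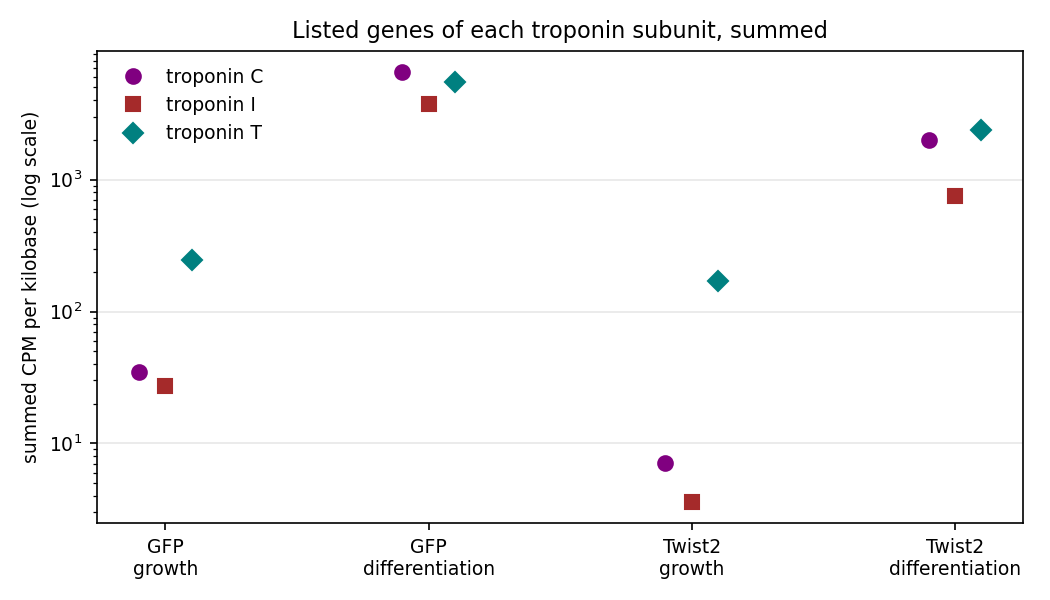
Summed CPM per kilobase of the listed genes of troponin C, I and T (vertical log axis) in the 4 libraries (horizontal axis). Troponin T lies well above C and I in both growth libraries, at 248 and 171, and near C after differentiation.

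Counts of genes were made at a 2-fold difference with 1 CPM added to each value, for genes whose higher library reached 10 CPM. All 7 troponins were higher after differentiation in GFP cells (log2 ratios 3.63 to 7.83, median 5.47), where 32.6% of all tested genes were called higher. All 7 were higher in Twist2 cells as well (3.44 to 8.26, median 6.14), against 26.5% of all tested genes. The medians of all tested genes were -0.38 and -0.22. Tnnc2 ranked 10th of 3694 genes from the highest in GFP cells and 3rd of 3715 in Twist2 cells. Tnnc2 and Tnni2 reached 10 CPM in the differentiation libraries alone. Their direction in both comparisons was therefore fixed by the rule for listing genes, and they add nothing to the count of 7. Tnnc1, Tnni1, Tnnt1 and Tnnt3 also lay under 10 CPM in Twist2 growth, at 3.70, 3.89, 4.70 and 4.97 CPM. The minimum thus fixed their direction in Twist2 cells as well. Only Tnnt2, at 194 CPM in Twist2 growth, could have been called either way there.

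With Twist2 in growth medium, 5 of the 7 genes passed the minimum, and 4 of these were called lower, all but Tnnt2, where 10.6% of all tested genes were called lower. The 4 genes, Tnnc1, Tnni1, Tnnt1 and Tnnt3, passed through GFP growth alone, as they lay at 3.70 to 4.97 CPM in Twist2 growth. The minimum of 10 CPM thus fixed their direction, though not the size of their ratios. Only Tnnt2 could have been called either way. Tnnc2 and Tnni2 stayed under 10 CPM in both growth libraries and had log2 ratios of -1.93 and -2.40 with 1 CPM added. Over all 7 genes the median was -2.33, against -0.09 for all tested genes. In differentiation medium 6 of the 7 were called lower, all but Tnnt1, where 25.2% of all tested genes were called lower. Tnnt1 lay at -0.77 and, with libraries scaled to the reads outside the table, at -1.37, past 2-fold. The median of the 7 was -1.82, against -0.19. Each library enters 2 of these 4 comparisons, so the comparisons are not independent of each other.

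The difference of the 2 differentiation responses, Twist2 minus GFP, was taken from the same ratios. With 1 CPM added it was 2.52 for Tnnt1 and 1.52 for Tnnt3, whose growth level was lower with Twist2, and -1.36 for Tnnt2. From the reads alone these differences were 2.77 (counting SE 0.21), 1.76 (0.21) and -1.36 (0.05). For Tnnc1, Tnnc2, Tnni1 and Tnni2 the differences with 1 CPM added were 0.04, 0.43, -0.01 and 0.29. From the reads alone they were 0.30 (counting SE 0.25), 1.06 (0.41), 0.26 (0.24) and 2.73 (1.04). Their sign depended on the pseudocount, with -0.55, -0.46, -0.65 and -1.06 at 5 CPM, so no direction is given for them. Over the pseudocounts and scalings tried, the difference stayed positive for Tnnt1 and Tnnt3 and lay between -1.35 and -1.90 for Tnnt2. The median over all 3760 genes was 0.19, with quartiles of -0.58 and 1.02.

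A list of 18 other genes of the thin filament or linked to muscle filaments, called here the thin filament list, had 15 in the table. Its members are not all thin filament proteins, since Mybph encodes a myosin-binding protein. Lists were read with 1 CPM added and no minimum CPM. All 15 were at least 2-fold higher after differentiation in GFP cells (median 3.91) and 14 in Twist2 cells (median 4.05). Of all genes tested with the minimum of 10 CPM, 32.6% and 26.5% were called higher, and all 15 reached that minimum. The highest in GFP cells were Acta1 (7.66) and Actc1 (7.52), which encode skeletal and cardiac alpha actin, Mybph (7.03) and Lmod2 (6.63). Lmod2 reached 10 CPM in the differentiation libraries alone, so its direction was fixed by the rule for listing genes. In Twist2 cells they were Mybph (7.87), Acta1 (7.85), Actc1 (7.73) and Klhl41 (6.50). All of these lay under 10 CPM in Twist2 growth, as did Lmod2, Lmod3, Tmod1, Klhl40 and Xirp1. With the minimum, the direction of these genes in Twist2 cells was thus fixed.

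With Twist2 in growth medium, the count was 9 of the 15 genes of this list lower by 2-fold or more and 0 higher (median -2.19). The minimum of 10 CPM was reached by 14 of them, and 10.6% of all genes tested with it were called lower. Of the 9 lower genes, all but Neb reached it in GFP growth and not in Twist2 growth, so the minimum fixed their direction. Neb was at 907 CPM in GFP growth and 230 in Twist2 growth. Lmod3 (-3.87), which encodes an actin-nucleating leiomodin, Klhl41 (-3.57), Klhl40 (-2.94) and Mybph (-2.82) were the lowest. Fhl1 (0.46) was, like Tnnt2, slightly higher with Twist2. In differentiation medium 14 of the 15 were lower (median -1.94), beside 25.2% of all tested genes. The lowest were Lmod2 (-3.31), Fhl1 (-2.45), Xirp1 (-2.43) and Acta1 (-2.43). The exception was the tropomyosin gene Tpm1 (-0.81).

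Fast and slow genes outside the troponins were few, 5 of 10 and 5 of 9 names being listed. In growth medium 4 of the 5 fast but 2 of the 5 slow genes reached 10 CPM, so the growth counts of the lists cannot be set against each other. There 4 of 5 fast genes were at least 2-fold lower with Twist2 (median -2.76), Mylpf (-3.22), Actn3 (-3.09), Myl1 (-2.76) and Atp2a1 (-1.96). Myl1 and Atp2a1, at 3.52 and 7.68 CPM in Twist2 growth, passed the minimum through GFP growth alone, which fixed their direction. Of the slow genes 1 of 5 was lower (median -0.63), Myl6b (-1.40). The slow genes Myh7, Casq2 and Mybpc1 stayed under 10 CPM in both growth libraries, with Myh7 at 0.821 and 0.181 CPM, and with 0.1 CPM added the slow median there was -1.30. In differentiation medium all 5 fast genes (median -1.80) and 4 of 5 slow genes (median -1.53) were lower, the fifth being Atp2a2 (-0.74). Of 5 listed genes of cardiac and developing muscle, 4 were lower in growth and 5 in differentiation medium (medians -1.51 and -2.06). Actc1 from the thin filament list was among them. In growth medium Actc1, Myl4 and Myh3 passed the minimum through the GFP library alone, which fixed their direction. The other gene lower there, Ankrd1 (-1.30), reached 10 CPM in both growth libraries. The lowest in differentiation medium were the myosin genes Myh8 (-3.69) and Myh3 (-3.43). Beside these counts, 10.6% of all genes tested with the minimum of 10 CPM were called lower in growth and 25.2% in differentiation medium.

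**Figure D5:**
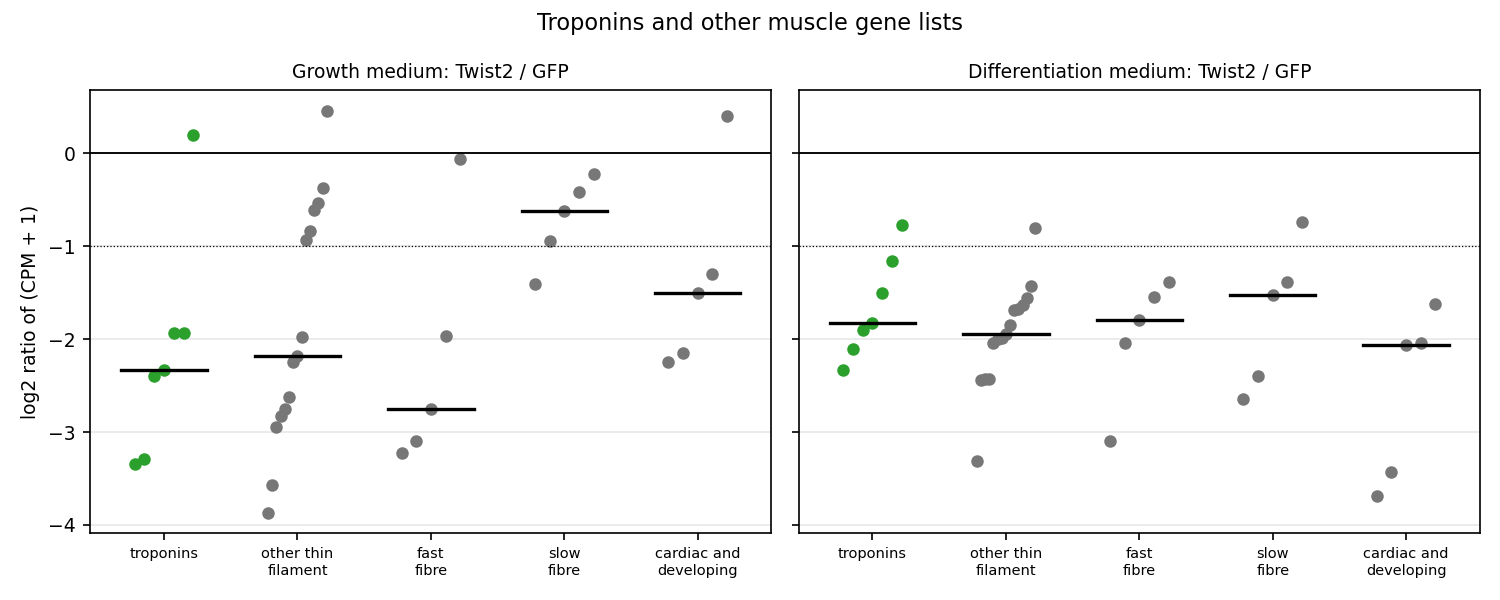
Log2 ratio of CPM + 1 for Twist2 against GFP (vertical axis) of each gene in the troponins and in 4 muscle gene lists (horizontal axis), in growth medium (left) and differentiation medium (right), with bars at the medians and a dotted line at 2-fold lower. The troponin medians are -2.33 and -1.82, and Tnnt2 is the troponin above 0 on the left.

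Of 23 regulators of muscle and fibre type genes, 12 were listed. After differentiation 6 were at least 2-fold higher and 2 lower in GFP cells, and 5 were higher and 1 lower in Twist2 cells. Mef2c, higher in both, reached 10 CPM in the differentiation libraries alone, so its direction was fixed by the rule for listing genes. Myog and Tead4, higher in both as well, lay at 3.52 and 5.87 CPM in Twist2 growth. With the minimum of 10 CPM their direction in Twist2 cells was thus fixed, as was that of Myog between the growth libraries. With Twist2, 5 were at least 2-fold lower and 1 was higher in growth medium (median -0.83), and 4 were lower and none higher in differentiation medium (median -0.88). The 4 of 12 lower there stand beside 25.2% of all tested genes, the 5 lower in growth medium beside 10.6%, and the 6 and 5 higher after differentiation beside 32.6% and 26.5%. Myogenin, Myog, was at 76.4 CPM in GFP growth and 3.52 in Twist2 growth, and at 1075 and 378 CPM after differentiation. Next lowest in growth medium were Eya4 (-2.40), Mef2a (-1.95) and Myod1 (-1.11), and Nfatc1 (1.09) was higher. In differentiation medium Mef2c (-4.59), Eya4 (-2.30), Tead4 (-1.95) and Myog (-1.51) were lowest. Their part in the troponin levels was not tested.

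The listed markers of fibroblasts differed between the Twist2 and GFP libraries. Of 7 names 3 were listed, Col3a1, Dcn and Ly6a, and their summed level was 820 CPM in GFP growth, 561 in GFP differentiation, 3086 in Twist2 growth and 8818 in Twist2 differentiation. Col3a1, a collagen gene, made most of this. Ly6a had 0 reads in GFP differentiation, which allows up to 0.325 CPM. With 1 CPM added, all 3 were at least 2-fold higher with Twist2 in both media. In differentiation medium Ly6a stayed under the minimum of 10 CPM, at 3.32 CPM with Twist2, so 2 markers were tested there. Of all tested genes, 5.21% were higher in growth and 25.4% in differentiation medium. Dcn reached 10 CPM in the Twist2 libraries alone, so its direction was fixed by the rule for listing genes. Names without a 2-fold difference from GFP growth could not be listed. Listed muscle identity markers summed to 3486, 12476, 1585 and 6277 CPM in the same order, with none at 0. In differentiation medium 4 of the 7 were at least 2-fold lower with Twist2, beside 25.2% of all tested genes, and 1 was higher, beside 25.4%. The latter was Pax7, a muscle stem cell factor, at 78.7, 4.01, 60.5 and 34.6 CPM. In differentiation medium Pax7 passed the minimum through the Twist2 library alone, which fixed its direction. Of 6 smooth muscle markers 3 were listed, at 416, 8217, 208 and 5273 CPM in sum. Acta2, smooth muscle actin, made most of it, at 361, 7948, 113 and 5050 CPM. In growth medium Tagln (log2 ratio with 1 CPM added 1.65) and Smtn (0.60) were higher with Twist2 while Acta2 (-1.67) was lower. In differentiation medium the ratios were 0.44, -0.89 and -0.65. The part of these markers in the troponin differences was not tested.

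Genes with a profile like that of the troponins were ranked by the distance between log2(CPM + 1) values, centred on each gene's mean, over the 4 libraries, over 3603 genes whose mean reached 10 CPM. Nearest to the median troponin profile were Ckm, Srl, Tm6sf1, Trim72, Pygm and C1qtnf3, at distances from 0.599 to 0.771 on the log2 scale. Ckm encodes muscle creatine kinase and Pygm muscle glycogen phosphorylase. Nearest to Tnnc2 were Myl4 (0.485), Actc1 (0.610) and Mb (0.824), and nearest to Tnni1 were Actc1 (0.399), Tnnc1 (0.429) and Mybph (0.455). Of the troponins, Tnnt2 lay farthest from their median, at 2.52, and Tnni2 nearest, at 0.636. With 4 libraries this is a description.

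Genes of the length of the troponins had other medians than all genes. The 159 listed genes whose longest coding transcript is between 700 and 1200 bp, the range of the troponins, had a median Twist2 to GFP log2 ratio of 0.44 in differentiation medium, against -0.06 for all genes with a length. For the differentiation of Twist2 cells the medians were 0.65 and -0.20, for that of GFP cells 0.30 and -0.40, and for Twist2 in growth medium 0.09 and -0.10. The length class thus had a higher median than all genes in each comparison. The part of length in the troponin values was not tested.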

How the data were processed

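RNA of 4 samples, 1 per group, was sequenced. The authors deposited 1 table of CPM values per gene and library with 3 columns of log2 ratios against GFP growth, per the file headers. Per the submitters' processing notes, GRCm38 (mm10), DESeq2 1.6.3 and TopHat2 2.0.0 were used, with no role named. The sources used here give no read counter, annotation, strand setting or read length. The deposited log2 ratios matched log2 of CPM + 1 within 1.3e-11 and served for that check alone.

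Reads were recovered from the step between CPM values, and 100% of values were whole within 0.001 reads. The totals ranged from 9235281 to 12362290 reads. Ratios were taken on reads, with exact conditional binomial (Clopper-Pearson) 95% intervals, and, for counts and medians, on log2 of CPM + 1. Shares have Clopper-Pearson intervals of the reads, rescaled by length. No test across groups was possible without replicates, and no count model was fitted. Of the symbols, 3607 were found in GENCODE M21, 142 through an older symbol in RefSeq, and 11 were not matched.

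Members and lists were chosen with earlier results of these data known. Every troponin gene is named. Of a list, up to 4 members with the largest ratios in a comparison are named and any at least 2-fold against its median, and the 6 genes nearest to the troponin median and 3 nearest to Tnnc2 and Tnni1. The calculation was tested on simulated data. Pseudocounts of 0.1 and 5 CPM, size factors, scaling to reads outside the table, no minimum CPM and other lengths were tried, and no minimum for the nearest genes. Promoter windows were shortened to 250 bases after matches in a longer window had been seen. Python 3.11.15, numpy 2.4.6, pandas 2.3.3, scipy 1.17.1 and matplotlib 3.10.9 were used.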

Additional observations from a re-analysis of the deposited data

Results flagged for a closer look

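Tnnt2 was higher with Twist2 in growth medium and lower with Twist2 in differentiation medium, the single troponin whose 2 ratios had opposite signs. Its log2 ratio, with 1 CPM added, was 0.20 in growth and -1.16 in differentiation medium, a difference of -1.36. With 1 library per group this difference was not tested.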

How the results depend on the processing

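The log2 ratios of the 7 troponin genes in 4 comparisons kept their sign in all 112 values under pseudocounts of 0.1 and 5 CPM, size factors and scaling to reads outside the table, and 110 stayed on the same side of 2-fold. The exceptions were Tnni2 in growth medium, at -0.98 with a pseudocount of 5 CPM, and Tnnt1 in differentiation medium, at -1.37 with the outside-table scaling. Counts of troponins called 2-fold different stayed within 1.5 times the reported ones, also with no minimum CPM. The outside-table scaling moved the median of all genes by 0.78, 0.25, -0.05 and -0.57 in the 4 comparisons in the order GFP differentiation, Twist2 differentiation, growth and differentiation medium. Size factors moved it by 0.34, 0.04, 0.23 and -0.06. Of all calls in GFP differentiation, 44.4% were in the higher direction, 57.8% with size factors and 69.8% with the outside-table scaling. In Twist2 differentiation the share was 51.9%, and 66.8% with the outside-table scaling. It was 33.0% in growth medium, 53.0% with size factors, and 50.2% in differentiation medium, 24.3% with the outside-table scaling. The 6 genes nearest to the troponin median were the same with no minimum CPM.

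The share of Tnnt2 in troponin T depended on length. From reads not divided by length it was 59.6% in GFP growth, 74.4% in GFP differentiation and 76.0% in Twist2 differentiation. With merged exon length it was 25.8%, 40.2%, 82.6% (Twist2 growth) and 43.8% (Twist2 differentiation), as the construction of that length, with retained introns, implies. No paired analysis was possible because each group has 1 library, and no replicate could be left out. Depth limits Tnni2 and Tnnc2 in Twist2 growth, with 2 and 15 reads.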
